A study of Mus musculus with 6 samples.

Results

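Expression of 9 genes of the AP-1 transcription factor family was compared between mouse leukaemias that lack and that carry activation-induced cytidine deaminase (AID). The family was read by 13 of the 45037 probe sets on the arrays, namely all those annotated to exactly 1 of the symbols Fos, Fosb, Fosl1, Fosl2, Jun, Junb, Jund, Batf and Atf3. For 5 genes there was 1 probe set and for 4 genes there were 2. A probe set is a group of short probes that mostly lie near the 3' end of a transcript.

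The study set BCR-ABL1-driven acute lymphoblastic leukaemia without AID (AID-/-, 3 arrays) against the same leukaemia with the intact gene (AID+/+, 3 arrays). All 6 samples came from Balb/c mice, and BCR-ABL1, the kinase made by the Philadelphia translocation, was common to both groups. The titles call the arrays biological replicates. How BCR-ABL1 was introduced, the age of the animals and whether the leukaemias of 1 group came from separate animals or clones were not given in the sources used here, so the p-values below reflect the spread among these arrays, which may be technical. Sex and genotype cannot be told apart: Xist, the RNA of the inactive X chromosome, lay at 4.35 to 6.02 in the AID-/- arrays and 11.93 to 12.18 in the AID+/+ arrays, and the Y-linked Kdm5d at 7.62 to 7.74 against 2.42 to 2.68.

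AP-1 is a dimer of basic leucine zipper (bZIP) proteins. Jun proteins pair with each other or with Fos proteins, while Fos proteins need a Jun partner to bind DNA. BATF and ATF3 lack the strong activation domains of FOS and JUN and often act as repressors or as partners of other factors. Fos, Fosb, Jun and Junb are immediate-early genes, induced within minutes by growth factor, antigen receptor and stress signals through MAP kinases, and in B-lineage cells they respond to receptor signalling. c-JUN is known to support BCR-ABL1-driven lymphoid leukaemia in mice.

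The family did not move as a block. Jun was higher in AID-/- leukaemia at both of its probe sets, Atf3 was lower, and a dim probe set of Fosl2 was lower, while the other 9 probe sets did not pass the test. Of the 13 probe sets, 2 were thus called higher and 2 lower by limma at an adjusted p under 0.05, where 7.24% of all probe sets were called higher and 7.39% lower. Together these were 30.8% of the AP-1 probe sets, against 14.6% of all. Probe sets above the median probe set in mean signal were called more often in the whole table (24.3%), and 3 of the 8 such AP-1 probe sets were called. Taking each gene by its brightest probe set, 1 of 9 genes was higher and 1 lower, against 10.1% and 8.42% of all 18193 genes. In either direction 18.5% of all genes were called. Without AID-/- replicate 1, 4 of the 9 genes were called, and 6109 of all probe sets, against 6589 with all arrays. The median difference over the 13 probe sets was -0.09 on the log2 scale, and that over all probe sets was -0.04. The shares of called AP-1 probe sets and genes rest on 4 probe sets and 2 genes, and nothing particular to the family is read from them.

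**Figure D1:**
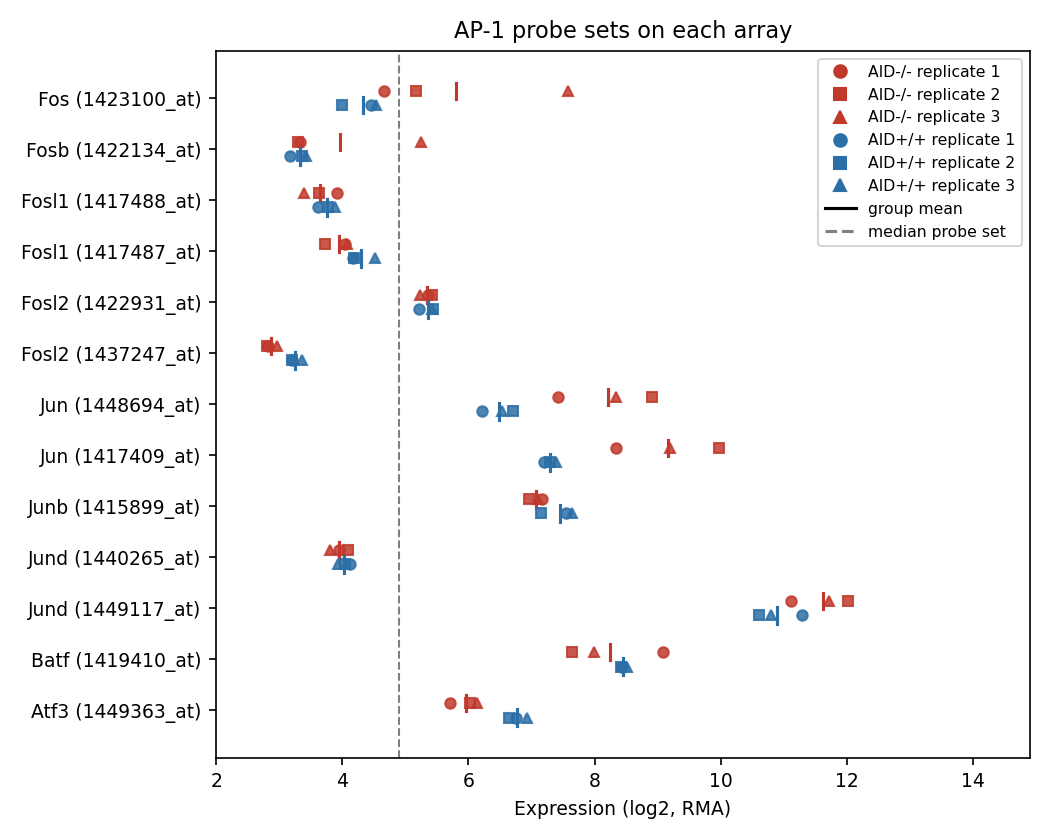
Expression of each AP-1 probe set on each array (log2, RMA); red symbols are AID-/- and blue symbols AID+/+ arrays, the symbol shape gives the replicate, short vertical bars are group means of 3 arrays and the dashed line is the median probe set at 4.89. Both Jun probe sets separate the groups, Atf3 separates them in the other direction, and the Fos and Fosb probe sets each have 1 high array, AID-/- replicate 3.

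Promoter sequence is shown for Jun, Fos and Atf3, the members on which the results below turn. Each stretch is the 120 bases before the annotated start, 5' to 3' on the gene's strand, from RefSeq on GRCm38.p6; 8 of the 9 genes had a window in that table. The Jun stretch lies at chr4:95052223-95052342 (minus strand), the Fos stretch at chr12:85473770-85473889 (plus strand) and the Atf3 stretch at chr1:191183334-191183453 (minus strand). Capitals mark the matches described below.
Jun: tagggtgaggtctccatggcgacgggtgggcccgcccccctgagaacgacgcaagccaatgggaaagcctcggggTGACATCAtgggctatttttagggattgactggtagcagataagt
Fos: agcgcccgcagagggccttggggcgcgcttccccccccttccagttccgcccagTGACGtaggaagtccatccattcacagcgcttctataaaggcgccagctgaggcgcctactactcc
Atf3: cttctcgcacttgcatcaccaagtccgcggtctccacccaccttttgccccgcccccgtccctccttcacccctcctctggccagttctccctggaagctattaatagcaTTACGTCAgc

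The letters of the AP-1 site, TGANTCA, occurred in none of the 8 family windows of 300 bases (250 before and 50 after the start), and in 7.81% of all 32851 windows. The full cyclic AMP response element (CRE), TGACGTCA, and the CArG box of serum response factor were likewise in 0 of the 8, against 1.79% and 1.63% of all windows. Sequence more than 250 bases before the start was not searched. These counts therefore cannot show whether a gene, Fos included, has such an element farther upstream. The Jun window held TGACATCA, a variant of the AP-1 site, at positions -45 to -38 from the start, as did 3.62% of all windows. The Fos window held the CRE core TGACG at positions -66 to -62 and again at -129 to -125, outside the stretch shown. The Atf3 window held TTACGTCA at positions -10 to -3, letters found in 0.499% of all windows, and this match contains the CRE core. In total the CRE core was in 5 of the 8 windows (Atf3, Fosb, Junb, Fos and Batf) and in 20.8% of all windows. Both strands were searched. The 2 variants and the core were chosen after the sequences had been read, so these matches are descriptions only.

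Jun encodes c-JUN, the most potent activator among the Jun proteins. At its brighter probe set (1417409_at) it measured 8.33, 9.97 and 9.20 in AID-/- replicates 1, 2 and 3 and 7.20, 7.30 and 7.38 in the AID+/+ replicates, all on the log2 scale. The lowest AID-/- array was 0.95 above the highest AID+/+ array. The group means were 9.17 ± 0.82 and 7.29 ± 0.09 (SD, n = 3), a difference of 1.87 (SE 0.34), or 3.66-fold (95% interval 2.13 to 6.30), with a limma adjusted p of 0.00793. Only 1.37% of all probe sets differed by more.

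The other Jun probe set (1448694_at) gave 7.41, 8.91 and 8.34 in AID-/- against 6.21, 6.71 and 6.54 in AID+/+ leukaemia. Its difference was 1.74 (SE 0.33), or 3.33-fold, with an adjusted p of 0.00943. Both probe sets thus ranked the AID-/- arrays alike, with replicate 2 highest and replicate 1 lowest. The AID-/- arrays spread far more than the AID+/+ arrays at the brighter probe set, over 1.64 against 0.18 log2 units. In AID-/- leukaemia 0.755% of all probe sets had a larger SD, and in AID+/+ leukaemia 65.5% did. Both probe sets passed in each of the 6 fits that left out 1 array, with an adjusted p of at most 0.0439, but neither passed without variance moderation (adjusted p = 0.118 and 0.126).

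Jund, which encodes a Jun protein that is expressed broadly and is less dependent on stimulation, had 1 bright probe set (1449117_at). It measured 11.11, 12.01 and 11.72 in AID-/- and 11.28, 10.60 and 10.79 in AID+/+ leukaemia. The groups overlapped through AID-/- replicate 1 and AID+/+ replicate 1. The difference of 0.72 (SE 0.25, 95% interval 0.16 to 1.29) did not pass (limma adjusted p = 0.0925), although it passed without AID-/- replicate 1 (0.97, adjusted p = 0.0182) and with array weights (0.84, adjusted p = 0.0319). The order of the AID-/- arrays was that of Jun. The second Jund probe set (1440265_at) lay below the median probe set in both groups, at 3.81 to 4.10 and 3.93 to 4.13, and differed by -0.09 (SE 0.11).

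Junb encodes a Jun protein that can oppose c-JUN at growth-related genes. It measured 7.17, 6.96 and 7.10 in AID-/- and 7.55, 7.16 and 7.64 in AID+/+ leukaemia, and the groups overlapped through AID+/+ replicate 2. The difference was -0.37 (SE 0.14, 95% interval -0.69 to -0.05) with an adjusted p of 0.121; without AID+/+ replicate 2 it was -0.52 and passed (adjusted p = 0.0304). The intervals of Jun and Junb did not overlap. Whether their differences differ was not tested.

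Fos encodes c-FOS, the usual partner of c-JUN after stimulation. It measured 4.66, 5.17 and 7.57 in AID-/- replicates 1, 2 and 3 against 4.46, 4.0 and 4.54 in the AID+/+ arrays. The groups did not overlap, but by only 0.13, and AID-/- replicate 3 stood 2.41 above the next array. The means were 5.80 ± 1.56 and 4.33 ± 0.29 (SD, n = 3). The difference of 1.47 (SE 0.64, 95% interval 0.00 to 2.94) had an unadjusted p of 0.0496 and did not pass (limma adjusted p = 0.182). Without AID-/- replicate 3 it was 0.58 (SE 0.21, adjusted p = 0.136). The SD in AID-/- leukaemia was among the largest of the table, with 0.109% of all probe sets above it.

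Fosb, a close relative of Fos, was high in the same array. It measured 3.34, 3.30 and 5.26 in AID-/- and 3.18, 3.37 and 3.43 in AID+/+ leukaemia. AID-/- replicates 1 and 2 lay within the AID+/+ range, and replicate 3 stood 1.92 above the next AID-/- array. The difference of 0.64 (SE 0.46, adjusted p = 0.433) was -0.01 without AID-/- replicate 3 (adjusted p = 0.981). In AID-/- replicate 3 Jun was between its values in the other 2 AID-/- arrays, so the array with most Fos and Fosb was not the one with most Jun.

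Not all immediate-early genes followed Fos in that array. Ier2, chosen after its values were seen, measured 8.14 in AID-/- replicate 3 and 8.36 and 8.40 in replicates 1 and 2. Egr2 and Egr3, zinc finger factors of the same early response and chosen likewise, were at 3.53 and 5.88 in AID-/- replicate 3, within or below the range of the other AID-/- arrays. Egr2 lay below the median probe set on every array, so its order says little. Of the 22 measured genes of the immediate-early list, 8 were highest in replicate 3 among the AID-/- arrays, 7 in replicate 1 and 7 in replicate 2. Those highest in replicate 3 included Dusp1, Klf6 and Ppp1r15a, also chosen after their values were seen. The myeloid integrin gene Itgam, chosen after its values were seen, was high in AID-/- replicate 3 at 5.54, against 4.03 and 3.64 in replicates 1 and 2 and 3.16 to 3.58 in AID+/+ leukaemia. Lyz2, another myeloid gene, was lowest of the AID-/- arrays in replicate 3, at 5.69.

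**Figure D2:**
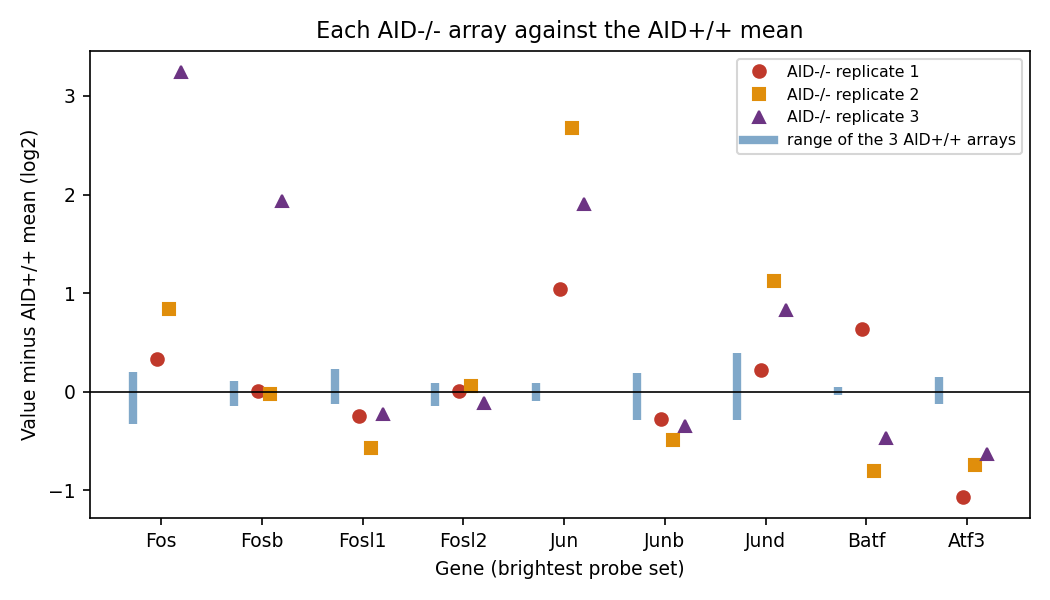
Value of each AID-/- array minus the mean of the 3 AID+/+ arrays (log2), for the brightest probe set of each AP-1 gene; symbols are AID-/- replicates and blue bars span the AID+/+ arrays. Replicate 3 is 3.24 above the AID+/+ mean for Fos and 1.93 for Fosb, replicate 2 is 2.68 above it for Jun, and Batf lies on both sides of 0.

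Fosl1 and Fosl2 encode FRA-1 and FRA-2, Fos proteins without the strong activation domain of c-FOS. Both Fosl1 probe sets were below the median probe set on every array. At 1417487_at the AID-/- values were 4.04, 3.72 and 4.07 and the AID+/+ values 4.17, 4.18 and 4.53, a difference of -0.35 (SE 0.14, adjusted p = 0.142). The other probe set differed by -0.11 (SE 0.14) and the groups overlapped.

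The brighter Fosl2 probe set (1422931_at) was level, at 5.37, 5.42 and 5.24 in AID-/- and 5.22, 5.44 and 5.42 in AID+/+ leukaemia. Its difference was -0.02 with a 95% interval of -0.25 to 0.22. The dim probe set of Fosl2 (1437247_at) fell by 0.39 (SE 0.10, adjusted p = 0.0298), from 3.19 to 3.36 in AID+/+ to 2.81 to 2.97 in AID-/- leukaemia. These values lie close to the lowest signals of the arrays, where 12.5% of probe sets were dimmer on average, and the call held in 1 of 6 fits with an array left out, that lacking AID-/- replicate 3, with an adjusted p of up to 0.112 in the others. Fosl2 was thus called at 1 of its 2 probe sets, the dimmer.

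Batf encodes a bZIP protein that binds with JUN proteins and IRF4 or IRF8 in lymphocytes. Its AID+/+ arrays were nearly level at 8.44, 8.42 and 8.51, with 88.8% of all probe sets more variable. The AID-/- arrays were 9.09, 7.65 and 7.99, so that replicate 1 lay above and replicates 2 and 3 below every AID+/+ array. The mean difference was -0.21 (SE 0.31, adjusted p = 0.727). Without AID-/- replicate 1 it was -0.64 and passed (adjusted p = 0.0142). The order of the AID-/- arrays was the reverse of that for Jun. Since 3 arrays allow few orders, little is read from this.

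Atf3 encodes a stress-induced factor of the ATF family and is a known target of ATF4. It measured 5.71, 6.03 and 6.14 in AID-/- and 6.75, 6.64 and 6.93 in AID+/+ leukaemia, with a gap of 0.50 between the groups. The means were 5.96 ± 0.23 and 6.77 ± 0.14 (SD, n = 3), a fall of 1.76-fold (95% interval 1.42 to 2.18) or -0.81 on the log2 scale (SE 0.13, limma adjusted p = 0.00506). It passed in each of the 6 fits without 1 array (adjusted p up to 0.0256) and was lost without variance moderation (adjusted p = 0.0719).

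**Figure D3:**
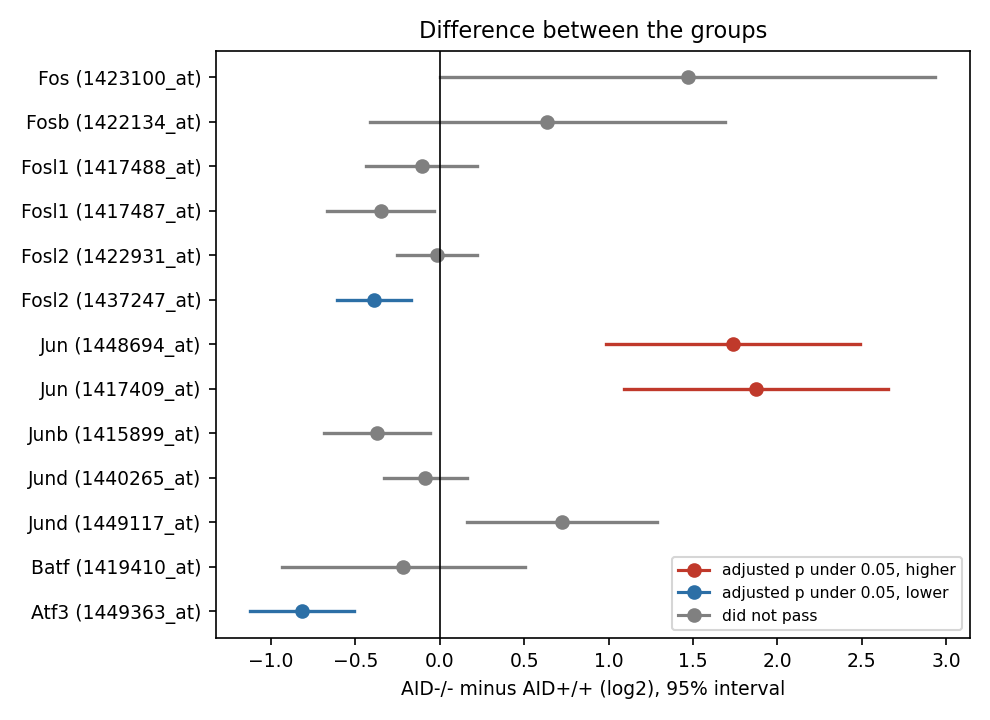
Difference between the groups (AID-/- minus AID+/+, log2) with its 95% interval for each AP-1 probe set; red passed and was higher, blue passed and was lower, grey did not pass. Jun lies at 1.87 and 1.74, Atf3 at -0.81, and the intervals of Fos and Fosb are the widest, since 1 AID-/- array was high.

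The AID-/- arrays were the more variable group for 9 of the 13 probe sets, and for 53.7% of all probe sets. Groups did not overlap at 6 of the 13, namely Fos, 1 probe set each of Fosl1 and Fosl2, both of Jun, and Atf3; 32.9% of all probe sets did not overlap. Of these 6, 3 were higher and 3 lower in AID-/- leukaemia, against 14.2% and 18.7% of all probe sets.

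Genes whose 6-array pattern was nearest to a called member were sought among 9091 genes of more than median signal. The measure was the root mean square difference in log2 units after each gene had been centred on its own mean. For Jun these were Gbp6, with a difference of 0.13, Gimap6, with 0.15, and Igtp, with 0.17, beside a range of 2.77 for Jun itself. Gbp6 and Igtp are interferon-inducible GTPases and Gimap6 is a GTPase of lymphocytes. Gbp6 measured 5.99, 7.97 and 6.91 in AID-/- and 4.88, 5.23 and 5.19 in AID+/+ leukaemia, with replicate 2 highest as for Jun. The genes were picked for closeness to Jun on these same arrays, so a shared order of arrays follows from the choice.

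For Atf3 the nearest genes were Sesn2, a stress-induced sestrin, with 0.05, Tmem205, with 0.07, and Pgk1, a glycolytic kinase, with 0.08, beside a range of 1.22 for Atf3. Sesn2 measured 5.79, 6.10 and 6.30 in AID-/- and 6.74, 6.71 and 7.06 in AID+/+ leukaemia. Fos had no gene as near: Tmem86a, the closest, was at 0.44, and Eya1, a phosphatase and transcriptional coactivator, was the closest to Fosb at 0.20. The genes beside Fos and Fosb were looked up after their values were seen. The 6 arrays form 2 groups, so genes that differ between the groups by a similar amount are near each other by this measure.

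**Figure D4:**
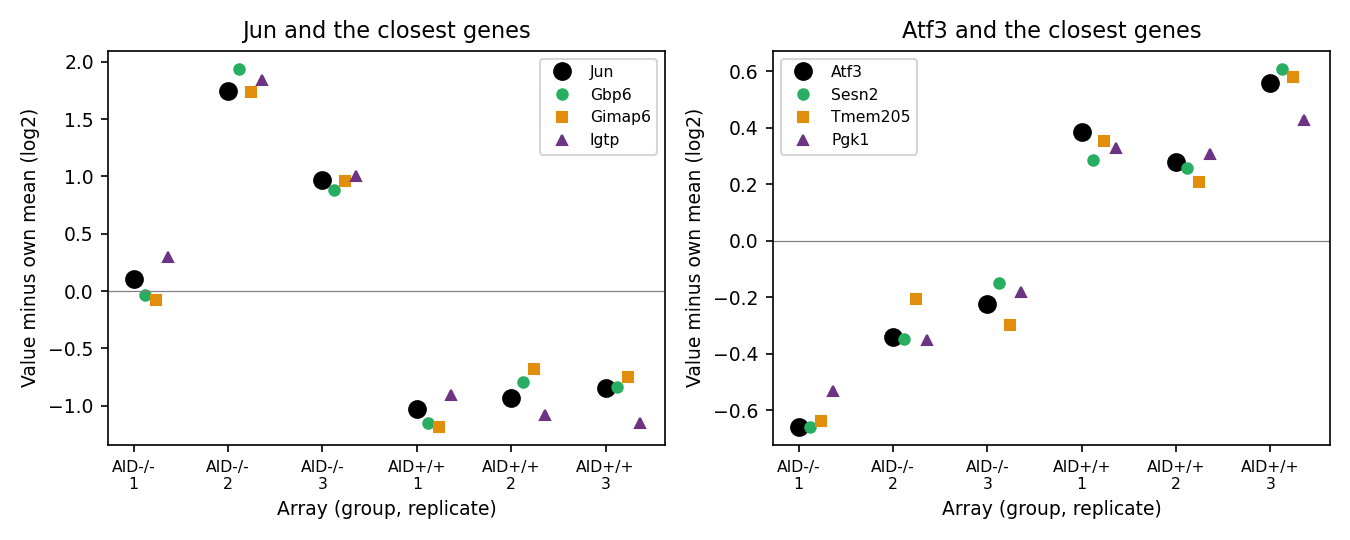
Values minus the gene's own mean over the 6 arrays (log2) for Jun (left) and Atf3 (right) with the 3 nearest genes of each; the x axis gives the group and replicate of each array. The 4 genes of each panel lie close together on all arrays, with AID-/- replicate 2 highest on the left and AID-/- replicate 1 lowest on the right. This follows from the choice, since the 3 genes were picked for closeness on these arrays.

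Among the related bZIP factors and AP-1 partners, 10 of 24 measured genes fell, 3 rose and 11 did not pass, so that 54.2% were called, against 18.5% of all genes and 27.6% of the genes above the median probe set. The count was 7, with 2 higher and 5 lower, without AID+/+ replicate 3. In that fit 4307 of all probe sets were called, against 6589 with all arrays. The median difference was -0.09, and -0.03 over all genes. Of the 24, 8 lay below the median probe set. The lists were chosen with earlier results of these data known, so the share is a description only. Bach2, a repressor of B cells that competes for AP-1-like sites, fell by 1.77 (SE 0.19, adjusted p = 0.000701), from 11.81 to 10.04, at all 3 of its probe sets.

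Atf4 fell by 0.67 (SE 0.09, adjusted p = 0.00218), from 11.73 ± 0.03 to 11.06 ± 0.13 (SD, n = 3). Ddit3, which encodes CHOP, fell by 0.91 (SE 0.13), from 7.94, 7.95 and 7.98 to 6.78, 7.08 and 7.27. Both were called at 1 probe set, of 3 and 2 respectively. The smallest difference among their probe sets was -0.03 for Atf4 and -0.21 for Ddit3. Chosen after their values were seen, Cebpg, a partner of ATF4, fell by 0.62 (SE 0.10) and Atf5 fell by 1.22 (SE 0.26). Atf5 did not pass when AID+/+ replicate 1 or 3 was left out (adjusted p at most 0.0625) or without moderation (adjusted p = 0.125). Whether the falls of these genes bear on that of Atf3 was not tested.

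The other lower bZIP genes, chosen after their values were seen, were Atf6, Creb1, Crem, Mafg and Maff, with differences of -0.76 to -0.37. Crem, Mafg and Maff passed in 1 or 2 of the 6 fits without 1 array, and Creb1 in 3. Of the 6 probe sets of Creb1, 2 were called lower and 1 higher (by 0.53), and with probe sets averaged it did not pass (adjusted p = 0.688). Nfe2l2, which encodes NRF2, was higher by 0.67 (SE 0.09) at 1 of its 2 probe sets, and with probe sets averaged it did not pass (adjusted p = 0.334). Bach1, a repressor at NRF2 sites and chosen after its values were seen, was higher by 0.51 (SE 0.09), and Atf7, chosen likewise, by 0.38 (SE 0.11). The other Atf7 probe set differed by -0.22, and Atf7 passed in 1 of 6 fits without 1 array and in 5 of all 14 alternatives (adjusted p up to 0.567). By their brightest probe sets the Jun and Fos partners Jdp2, Batf2, Batf3 and Atf2, named here for their role, were within 0.13 of 0 and did not pass. The other Jdp2 probe set was called higher, by 1.02, and with both averaged Jdp2 passed (adjusted p = 0.0164).

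Among kinases and SRF-ETS factors upstream of AP-1, 3 of 20 measured genes rose, 2 fell and 15 did not pass (median -0.07). The share called was 25%, against 18.5% of all genes and 27.6% of the genes above the median probe set. Only 2 of the 20 lay below that median, and nothing particular to the list is read from its share. Mapk9, which encodes JNK2, a kinase of c-JUN, was higher by 0.61 (SE 0.09, adjusted p = 0.00347), at 2 of 3 probe sets. Map3k7, which encodes TAK1, was higher by 0.69 (SE 0.11). It was called at 3 of its 6 probe sets, whose differences ran from -0.12 to 1.00. Elk1, an ETS partner of SRF at the Fos gene, was higher by 0.84 (SE 0.13). Only 1 of the 3 Elk1 probe sets was called, and with probe sets averaged it did not pass. Map3k1, a kinase upstream of JNK, fell by 0.88 (SE 0.12, adjusted p = 0.00194), at both probe sets. The remaining lower gene, chosen after its values were seen, was Map2k1, which encodes MEK1, with a difference of -0.40 (SE 0.09); it did not pass when AID+/+ replicate 2 or 3 was left out (adjusted p at most 0.0775).

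Of 12 measured regulators of AP-1 protein turnover and activity, 1 rose, 2 fell and 9 did not pass (median 0.07). All 12 lay above the median probe set. Their 25% called stands beside 27.6% of all genes above that median and 18.5% of all genes, and nothing particular to the list is read from it. Cops5, the JAB1 subunit of the COP9 signalosome and a coactivator of c-JUN, was higher by 0.50 (SE 0.08). It was called at 1 of its 2 probe sets, and the other differed by 0.12. Ndfip1, an adaptor of the ubiquitin ligase ITCH, which targets Jun proteins, fell by 0.57 (SE 0.11) at all 3 probe sets. Dusp10, a phosphatase of JNK and p38, fell by 0.57 (SE 0.14) and passed in 2 of 6 fits without 1 array. Men1, whose product menin binds JUND, differed by 0.22 (SE 0.09, adjusted p = 0.164).

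Among other immediate-early genes, 4 of 22 rose, 2 fell and 16 did not pass (median -0.15). Without AID-/- replicate 1, 10 of the 22 were called, and 6109 of all probe sets, against 6589 with all arrays. With all arrays 27.3% of the list were called, against 18.5% of all genes and 27.6% of those above the median probe set. Of the 22, 4 lay below that median, and nothing particular to the list is read from its share. Rhob, a GTPase induced by growth factors and DNA damage, rose by 2.53 (SE 0.12), or 5.77-fold, from 4.05, 4.15 and 4.11 to 6.38, 6.85 and 6.67. Csrnp1 was higher by 0.91 (SE 0.17) and Btg2, an antiproliferative p53 target, by 0.76 (SE 0.10). Each was called at 1 of its 2 probe sets, and the other differed by 0.07 for Csrnp1 and 0.45 for Btg2. Nr4a1, an orphan nuclear receptor induced by antigen receptor signals, fell by 0.64 (SE 0.09). The remaining calls, named after their values were seen, were Dusp5, higher by 0.82 (SE 0.19), and Klf2, a factor of lymphocyte quiescence, which fell by 2.30 (SE 0.46). Dusp5 did not pass when any 1 of the AID+/+ arrays was left out (adjusted p at most 0.0826).

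The textbook AP-1 target genes went in both directions, with 2 of 21 higher, 3 lower and 16 not passing (median 0.02). Only 3 were called when AID-/- replicate 1 or AID+/+ replicate 2 or 3 was left out. In those fits 6109, 4774 and 4307 of all probe sets were called, against 6589 with all arrays. With all arrays 23.8% of the list were called, against 18.5% of all genes and 27.6% of those above the median probe set. Of the 21, 10 lay below that median, and nothing particular to the list is read from its share. Cd44, a hyaluronan receptor, was called lower at 3 of its 4 probe sets, with a difference of -4.33 (SE 0.29) at the brightest. Mt1, a metallothionein, rose by 3.43 (SE 0.65, adjusted p = 0.00889), from 4.24, 4.11 and 3.94 to 8.22, 5.73 and 8.62, with AID-/- replicate 2, the array of highest Jun, the lowest of its group. That was 1 of the 2 probe sets of Mt1, and the other differed by -0.05 and was not called. Plaur, the urokinase receptor, fell by 0.44 (SE 0.09), and Fth1, the ferritin heavy chain, rose by 0.40 (SE 0.10), a call lost in 4 of 6 fits without 1 array. Anxa1, chosen after its values were seen, differed by -0.37 (SE 0.10) and passed in none of those 6.

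**Figure D5:**
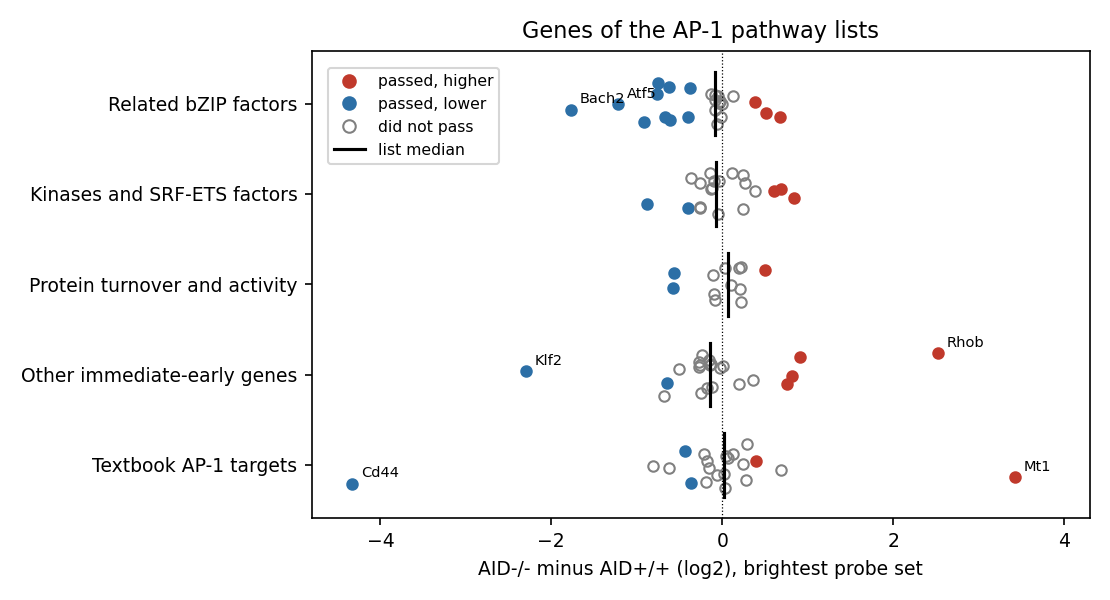
Difference between the groups (AID-/- minus AID+/+, log2) for the genes of 5 AP-1 pathway lists, each by its brightest probe set; red passed and was higher, blue passed and was lower, open circles did not pass, and vertical bars are list medians. The related bZIP factors have 10 blue and 3 red genes, and every list has genes on both sides of 0.

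The B-lineage identity of the samples was read from 8 measured markers, whose mean signal was 11.51 to 11.65 in AID-/- and 11.49 to 11.67 in AID+/+ arrays. Only Ptprc was called (fell by 0.37), which encodes CD45 and is not restricted to the B lineage. It passed in 1 of 6 fits without 1 array (adjusted p up to 0.10) and not without moderation. The mean hides Pax5, chosen after its values were seen, which did not pass. It measured 8.02, 6.77 and 7.84 in AID-/- and 8.13, 7.74 and 7.88 in AID+/+ leukaemia, lowest in AID-/- replicate 2. Among the AID-/- arrays, 5 of the 8 markers were highest in replicate 2 and 3 in replicate 1. Of T cell, erythroid and megakaryocyte, and stromal and endothelial markers, 0 of 7, 0 of 5 and 0 of 7 were called, and most lay below the median probe set. Of 10 myeloid markers, 7 lay below the median probe set and 2 were called higher in AID-/- leukaemia, while 7 of the 10 differences were below 0 (median -0.19). Fcgr3, an Fc receptor, measured 6.01, 6.78 and 5.78 against 4.27, 3.99 and 3.98, and Lyz2 measured 5.90, 6.46 and 5.69 against 4.96, 5.33 and 5.49, a call that held in 1 of 6 fits without 1 array. Both were highest in AID-/- replicate 2, the array of highest Jun. The mean of the myeloid list was 4.29 to 4.47 in AID-/- arrays, highest in replicate 2, and 4.05 to 4.35 in AID+/+ arrays. Among the AID-/- arrays, 6 of the 10 myeloid markers were highest in replicate 2, 2 in replicate 1 and 2 in replicate 3. Those highest in replicate 2 included Csf1r, Adgre1, Mpo and Cd14, which had differences below 0 and were not called. Replicate 2 was also highest for 12 of the 20 kinases and SRF-ETS factors, 9 of the 24 bZIP genes and 8 of the 21 target genes. The share over all genes was not counted. The part of other cells in the AP-1 values was not tested, and in bulk RNA fewer cells of a type and less RNA per cell cannot be told apart.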

How the data were processed

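The authors deposited log2 expression values for each array. RMA and Partek appear in the submitters' processing notes without versions, and other settings were not given in the sources used here. RMA corrects background, normalises arrays and summarises probes. Array medians lay between 4.85 and 4.90. No detection calls were used, so no gene was called absent; the number of arrays limits the precision.

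After 64 control probe sets were left out, 45037 entered a linear model (limma 3.58.1, R 4.3.3), with group as the only term and no filter, two-sided, with Benjamini-Hochberg adjustment over the table at 0.05. Differences are AID-/- minus AID+/+ with the moderated SE. Lists were counted in a second fit of 18193 genes, each by its probe set of highest mean, after symbols had been updated through Entrez identifiers; 34945 probe sets had 1 symbol, 932 several and 9160 none here. Members and lists were chosen with earlier results of these data known. All members were named, with up to 4 genes of smallest p per pathway list. The fit was tested on simulated data. Same-numbered arrays did not deviate together (correlations -0.05, -0.07 and 0.03), so no pairing was used.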

Additional observations from a re-analysis of the deposited data

How the results depend on the processing

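Over 13 probe sets and up to 13 alternatives each, 150 of 164 values kept their direction and side of the threshold, or stayed uncalled. Most of these belong to probe sets that were not called to begin with. Of the called probe sets, both of Jun and that of Atf3 passed in 12 of 13 alternatives, and the dim Fosl2 probe set in 5 of 12. Without variance moderation 0 of 13 member probe sets and 0 of 9 member genes passed, with 2363 of all probe sets (6589 with moderation) and 20 of the 97 measured pathway genes (32 with moderation); with 3 arrays a group each variance then rests on 4 residual degrees of freedom, and the cause was not tested. At a threshold of 0.01, 3250 probe sets and 19 pathway genes passed. Leaving out 1 array gave 3 to 5 member probe sets, 2 to 4 member genes, 22 to 34 pathway genes and 4307 to 6109 of all probe sets. With the replicate block 3 member probe sets passed, since the dim Fosl2 probe set was lost (adjusted p = 0.0520), with 2 member genes, 28 pathway genes and 5369 of all probe sets; the block changed no other call on a member. Quantile normalization and median centring left 4 member probe sets called. A filter on dim probe sets kept 8 of the 13, of which 3 passed. Low signals hold little order, as for Fosl1, the dim probe sets of Fosl2 and Jund, and Fosb on the arrays other than AID-/- replicate 3.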
